A study of Mus musculus with 14 samples.

Results

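The muscle microRNAs (miRs) miR-1, miR-133 and miR-206 were described across sham-operated, failing and estradiol-treated failing mouse left ventricle (LV). They were chosen by name and comprise 6 mouse probes, mmu-miR-1, mmu-miR-1-2*, mmu-miR-133a, mmu-miR-133a*, mmu-miR-133b and mmu-miR-206, of 520 mouse miRs that the authors kept and 1037 mouse probes on the array. The asterisk marks the opposite arm of the same precursor hairpin, in the naming of the time. Each of 14 mice gave LV RNA for 1 single-channel array with 3 spots per probe. All were male C57Bl/6 mice aged 3 to 4 months, with an ejection fraction of about 60% before surgery. The HF-ESTR group (n = 5) had transaortic constriction (TAC), reached heart failure (HF) with an ejection fraction of about 35% at 6 to 8 weeks, and then carried a pellet that released estradiol at 0.03 mg/kg per day for 10 days. The HF group (n = 5) had TAC, reached the same stage and was then euthanized without treatment, and the sham group (n = 4) had surgery without constriction. No HF group was followed for the same 10 days without estradiol, so treatment and added time with TAC cannot be told apart. RNA came from whole LV tissue, in which fewer cells of a type and less RNA per cell cannot be told apart.

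These miRs are called myomiRs because they are enriched in striated muscle. miR-1 and miR-133a are transcribed together from paired genes and are among the most abundant miRs of the cardiomyocyte, where miR-1 is known for its role in differentiation and electrical conduction and miR-133a for restraint of growth and fibrosis. miR-206 and miR-133b form the related pair of skeletal muscle, where miR-206 promotes differentiation and regeneration. A miR recognizes its target mRNAs mainly through its seed, bases 2 to 8 of the mature strand, and the second arm of the hairpin is usually degraded.

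The hairpins of the skeletal muscle pair are shown because they hold 2 of the members whose results differ most, a bright probe that saturated and a dim one that did not. In the RefSeq annotation of GRCm38.p6, Mir206 lies at chr1:20679010-20679082 and Mir133b at chr1:20682769-20682887, both on the plus strand, with 3686 bases between them and both within the long noncoding RNA gene Lincmd1 (chr1:20669882-20682958). Capitals mark the 2 mature arms of each hairpin, 5p first:
Mir206: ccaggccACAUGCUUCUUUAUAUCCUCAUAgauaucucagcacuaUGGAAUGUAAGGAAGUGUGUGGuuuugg
Mir133b: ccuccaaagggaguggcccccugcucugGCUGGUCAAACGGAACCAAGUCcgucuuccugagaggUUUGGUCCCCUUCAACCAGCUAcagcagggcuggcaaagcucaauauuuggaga
The measured members are the 3p arms, and their seeds are in capitals here, beside the 5p arms of Mir133b and Mir1a-1, which have dim probes of their own, miR-133b* and miR-1-1*:
miR-206 (3p): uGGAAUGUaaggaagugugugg
miR-133b (3p): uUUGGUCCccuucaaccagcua
miR-133b* (5p): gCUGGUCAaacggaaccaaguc
miR-1-1* (5p): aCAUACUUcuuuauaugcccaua
miR-1 and miR-206 have the same seed and differ at 4 of 22 positions, the first of them position 11. miR-133a and miR-133b have the same seed and differ only at position 22 of 22. miR-1-1* and miR-1-2*, the 5p arms of the miR-1 hairpins, share their seed and differ at 2 of 23 positions. Mir1a-1 (chr2:180389048-180389124) and Mir133a-2 (chr2:180398379-180398482) lie 9254 bases apart within the long noncoding RNA gene Mir1a-1hg. Each array oligonucleotide holds 2 copies of a unit complementary to the miR. The unit for miR-206 is 21 bases long:
miR-206 probe unit: cacacacttccttacattcca
miR-133b probe unit: tagctggttgaaggggaccaa
For miR-133a and miR-133b the unit is 21 bases of the 22-base miR, and how far each of these probes also takes up its close relative was not tested. Nor was the uptake of miR-1 by the miR-206 probe.

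Spot intensities were deposited after background subtraction and without scaling. The authors' value for a probe is the mean log2 intensity of its 3 spots plus 1 constant for the array, and the constants averaged 0.17 ± 0.46 on HF-ESTR arrays, -0.45 ± 0.23 on HF arrays and 0.34 ± 0.16 on sham arrays (SD, n = 5, 5 and 4). All 5 HF constants were negative and all 4 sham constants positive, and HF-ESTR 1 had -0.62 against 0.23 to 0.52 for the other HF-ESTR arrays. The column headings give 4 array codes. HF-ESTR 4 and HF-ESTR 5 share 1 code, HF-ESTR 1 to HF-ESTR 3 share the next with HF 5, HF 1 to HF 4 share another, and the 4 sham arrays have their own, so HF and sham share no code. A second number in the headings, 650 on HF-ESTR 1 and HF 2 and 600 on the other arrays, moved with brighter negative controls. Their median intensity was 37.8 on HF-ESTR 1 and 32.8 on HF 2, against 18.2 to 24.0 on the other arrays. A miR was taken as saturated on an array where at least 2 of its 3 spots reached 65000, near the upper limit of the scan. Of the 520 miRs, 42 were saturated on at least 1 array and 20 on all 14, with 21 to 36 per HF-ESTR array, 31 to 38 per HF array and 25 or 26 per sham array. Of 6 probes for the cardiac muscle miRs miR-208a, miR-208b and miR-499 and their opposite arms, 4 were above the authors' detection threshold on all 14 arrays and miR-208b* on none. The probes for endothelium, smooth muscle, white blood cells and red blood cells were above it on all arrays, and of these miR-126-3p, miR-143 and miR-145 were saturated on all of them. None of the probes for liver, neurons or epithelium was above it on all arrays.

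miR-1, miR-133a and miR-133b, the abundant arms, were saturated in all 3 spots on all 14 arrays. Single spots lay between 65397 and 65468 for miR-1, between 65362 and 65454 for miR-133a and between 65322 and 65440 for miR-133b. Before scaling, the mean log2 intensity of miR-1 was 15.998 in HF-ESTR, in HF and in sham mice alike, and the group differences were 0.00014 for HF-ESTR against HF and -0.00026 for HF against sham. Because the intensities were fixed at the ceiling, the scaled values follow the array constants. They averaged 16.17 ± 0.46 in HF-ESTR, 15.55 ± 0.23 in HF and 16.34 ± 0.16 in sham mice for miR-1 (SD, n = 5, 5 and 4), and the means of miR-133a and miR-133b were equal to these to 2 decimals.

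**Figure D1:**
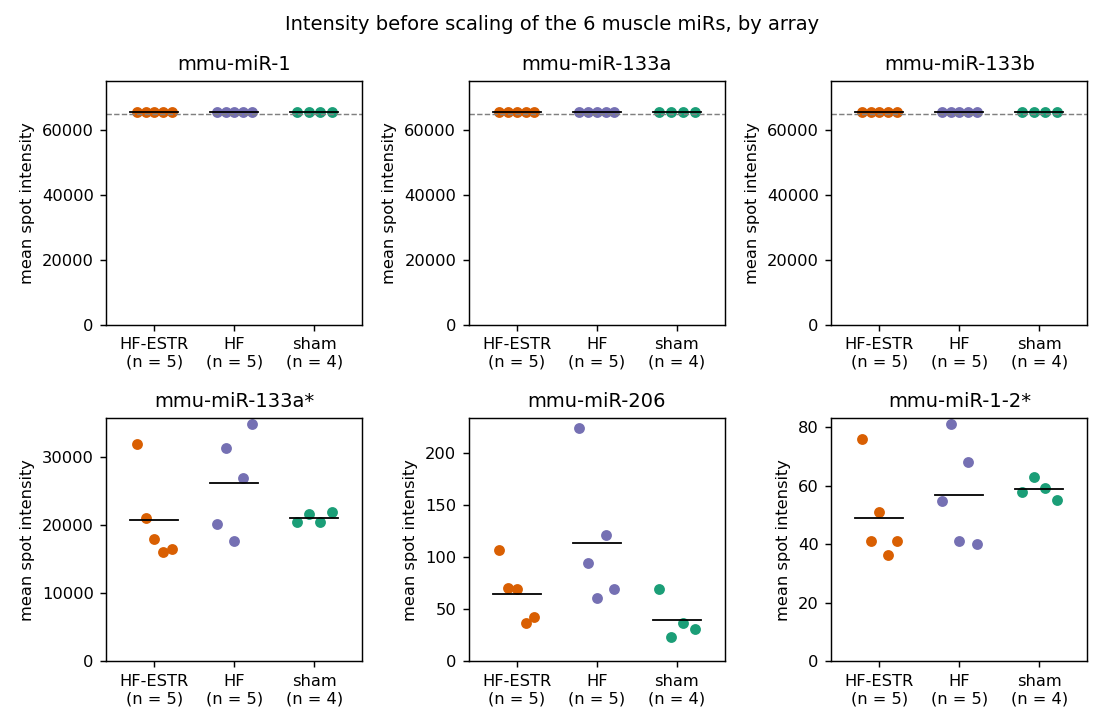
Mean intensity of the 3 spots before scaling (linear axis from 0), 1 point per array in HF-ESTR, HF and sham mice, with the group mean as a line and the saturation limit of 65000 dashed. The 3 abundant arms sit at the ceiling on all 14 arrays, whereas miR-133a* spans 16063 to 34864, miR-206 spans 23.0 to 223 and miR-1-2* spans 36.3 to 81.0.

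In limma fits of the scaled values the 3 saturated miRs had log2 differences of 0.62 ± 0.19 (SE) for HF-ESTR against HF (adjusted p = 0.0419), of -0.78 ± 0.15 for HF against sham (miR-1, adjusted p = 0.00315) and of -0.17 ± 0.20 for HF-ESTR against sham (adjusted p = 0.650). The array constants themselves differed by 0.62 (exact permutation test, two-sided, p = 0.0397), by -0.78 (p = 0.0159) and by -0.17 (p = 0.714) in these comparisons. Called as a difference over 0.5 at an adjusted p under 0.05, the saturated miRs passed in the first 2 comparisons, but these values measure the scaling and give no fold change of the miRs. With the array code as a block the difference between HF-ESTR and HF was 0.33, which rests on HF-ESTR 1 to 3 against HF 5. On leaving out single mice the 3 calls were kept only without HF-ESTR 1 (0.82) or HF 3 (0.70). Without any 1 of the other 8 mice none of the 3 was kept. Whether miR-1, miR-133a or miR-133b changed was therefore not measurable with these 3 probes.

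**Figure D2:**
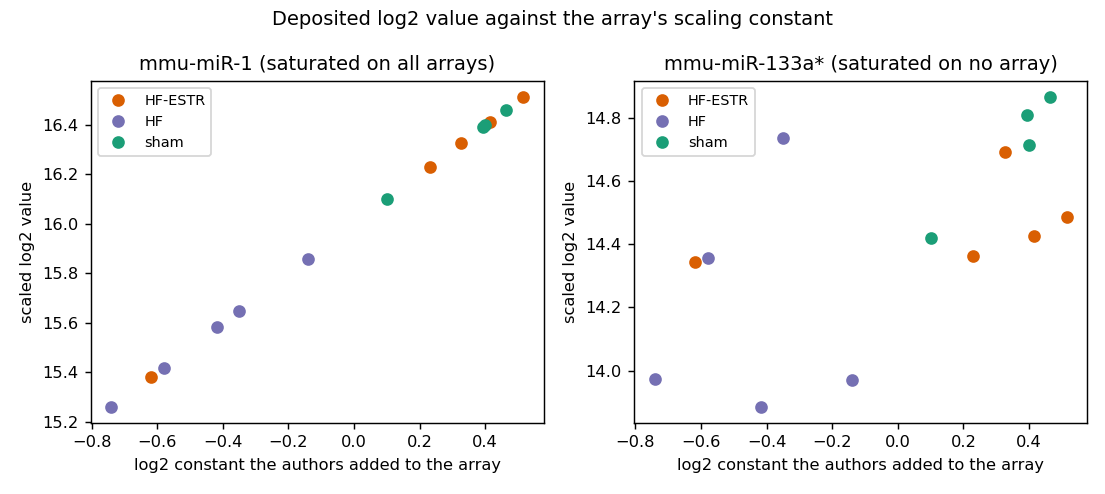
Deposited log2 value (y axis) against the log2 constant that the authors added to the array (x axis), 1 point per array and colour by group. For saturated miR-1 the 14 points form a straight line from 15.26 to 16.51, whereas unsaturated miR-133a* does not follow the constant in this way.

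miR-133a*, the opposite arm of miR-133a, was bright on all 14 arrays and saturated on none. Its mean intensity was 31970, 21125, 17973, 16063 and 16519 in HF-ESTR 1 to 5, 20197, 31388, 17680, 26927 and 34864 in HF 1 to 5, and 20461, 21719, 20423 and 21909 in sham 1 to 4. The sham mice were close together, the HF mice spread below and above them, and HF-ESTR 1 stood above the other HF-ESTR mice. Scaled values averaged 14.46 ± 0.14 in HF-ESTR, 14.18 ± 0.36 in HF and 14.70 ± 0.20 in sham mice. The log2 difference was -0.52 ± 0.19 (SE) for HF against sham (limma, adjusted p = 0.0611), 0.28 ± 0.16 for HF-ESTR against HF (adjusted p = 0.279) and -0.24 ± 0.17 for HF-ESTR against sham (adjusted p = 0.410), so none was called.
Before scaling, HF lay 1.20-fold above sham (exact permutation test, two-sided, p = 0.286) and HF-ESTR at 0.790 of HF (p = 0.214), the opposite sign of the scaled values in both comparisons. Without HF 5, whose intensity was the highest of all, the scaled difference between HF and sham was -0.66 and was called (limma, adjusted p = 0.0153), as it was without sham 1, at -0.62 (adjusted p = 0.0420).

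miR-1-2*, the 5p arm of a miR-1 hairpin, was dim. Its mean intensity was 76.0, 41.3, 51.0, 36.3 and 41.0 in HF-ESTR 1 to 5, 54.7, 81.0, 41.0, 68.0 and 40.0 in HF 1 to 5, and 58.0, 63.0, 59.3 and 55.3 in sham 1 to 4. The brightest HF-ESTR and HF mice were HF-ESTR 1 and HF 2, the 2 arrays with number 650. It was above the detection threshold in 3 of 5 HF-ESTR, 3 of 5 HF and 4 of 4 sham mice. Scaled values averaged 5.71 ± 0.12 in HF-ESTR, 5.31 ± 0.30 in HF and 6.21 ± 0.20 in sham mice (SD). Relative to the scaling, it fell by 0.90 in HF against sham (log2, SE 0.18, adjusted p = 0.00316), with no overlap between the groups, and it stayed called when any 1 mouse was left out. The unscaled intensities overlapped and gave -0.11 (exact permutation test, two-sided, p = 0.619), which ends the call.
For HF-ESTR against HF the scaled difference was 0.40 ± 0.15 (SE, adjusted p = 0.0922), and without HF 2 it was 0.51 and called (adjusted p = 0.0174), whereas the unscaled difference had the opposite sign, at -0.22 (exact permutation test, two-sided, p = 0.421). For HF-ESTR against sham it was -0.50 ± 0.16 (adjusted p = 0.0537), and without sham 1 it was -0.58 and called (adjusted p = 0.0393). All HF-ESTR values lay below all sham values on the scaled axis.

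miR-206, the skeletal muscle miR that shares its seed with miR-1, was near the detection threshold. Its mean intensity was 106, 70.3, 69.3, 36.3 and 42.3 in HF-ESTR 1 to 5, 223, 94.3, 60.3, 121 and 69.7 in HF 1 to 5, and 69.0, 23.0, 36.3 and 31.0 in sham 1 to 4. It was above the threshold in 4 of 5 HF-ESTR mice, in all 5 HF mice and in 1 of 4 sham mice. HF 1 was far above the others, and the groups overlapped through sham 1. Scaled values averaged 6.02 ± 0.32 in HF-ESTR, 6.19 ± 0.69 in HF and 5.50 ± 0.52 in sham mice (SD). The log2 difference between HF and sham was 0.69 ± 0.34 (SE, 95% interval -0.05 to 1.44, adjusted p = 0.140), that between HF-ESTR and HF was -0.18 ± 0.29 (adjusted p = 0.773), and that between HF-ESTR and sham was 0.52 ± 0.31 (adjusted p = 0.326). None was called.
With array weights miR-206 was called higher in HF than in sham (0.96, limma, adjusted p = 0.0294). Before scaling, the log2 values of HF and sham differed by 1.48 (exact permutation test, two-sided, p = 0.0317, 0.286 after Benjamini-Hochberg adjustment over the 9 tests of the 3 unsaturated miRs) and those of HF-ESTR and sham by 0.68 (p = 0.175), and HF-ESTR lay at 0.576 of HF (p = 0.119). With 3 of 4 sham mice below the threshold, the size of a difference from sham is not well measured. With negative controls subtracted the scaled differences were 2.38 for HF against sham (limma, adjusted p = 0.0738) and 1.86 for HF-ESTR against sham (adjusted p = 0.134). The smallest p that these groups allow is 0.0159 for 5 against 4 mice and 0.00794 for 5 against 5. None of the 9 unscaled tests passed after adjustment.

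Read against all miRs, 4 of the 6 muscle miRs were called lower in HF than in sham, where 18.3% of the 520 miRs were called lower and 8.46% higher, and the 4 were the 3 saturated miRs and miR-1-2*. These same 4 did not overlap between HF and sham, as was the case for 21.5% of all miRs. For the 3 saturated miRs both results follow the array constants. Among miRs saturated on no array, 1 of the 3 muscle miRs was called lower in HF than in sham, beside 67 of 478. For HF-ESTR against HF, 3 of 6 were called higher, all of them saturated, with 11.2% of all miRs called higher and 0.962% lower, and 0 of 6 had no overlap, against 5.58% of all. Of the 3 unsaturated muscle miRs 0 were called there, beside 39 of 478 unsaturated miRs called in either direction. For HF-ESTR against sham, 0 of 6 were called at an adjusted p under 0.05 in limma, with 3.27% of all miRs called lower and 5.19% higher, and only miR-1-2* had no overlap, against 14% of all. In that limma fit miR-1-2* alone had an unadjusted p under 0.05. The median log2 difference of the 6 miRs was -0.79, 0.51 and -0.17 in the 3 comparisons, HF against sham, HF-ESTR against HF and HF-ESTR against sham, against -0.13, 0.06 and -0.05 over all 520. With 3 of the 6 saturated, these medians largely repeat the array constants, which differed by -0.78, 0.62 and -0.17. They therefore give no shift of the muscle miRs as a family. Without scaling, the median over all miRs was 0.66, -0.55 and 0.12, and the calls between HF and sham turned to 0 lower and 244 higher, against 95 lower and 44 higher with scaling. Between HF-ESTR and HF they turned to 170 lower and 0 higher, against 5 lower and 58 higher. The summed scaled level of the 3 white blood cell miRs was 12.049 to 12.767 in HF-ESTR, 12.195 to 12.913 in HF and 11.692 to 12.002 in sham mice (log2), and it overlapped between HF-ESTR and HF. It did not overlap between HF and sham or between HF-ESTR and sham, nor did it before scaling (11.75 to 12.67 in HF-ESTR, 12.49 to 13.33 in HF and 11.42 to 11.61 in sham mice), and its part in the values of the muscle miRs was not tested. Of the 3, miR-223 and miR-142-5p did not overlap between HF and sham on the scaled values. miR-142-3p did, at 6.237 to 6.850 in HF and 6.326 to 6.532 in sham mice.

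**Figure D3:**
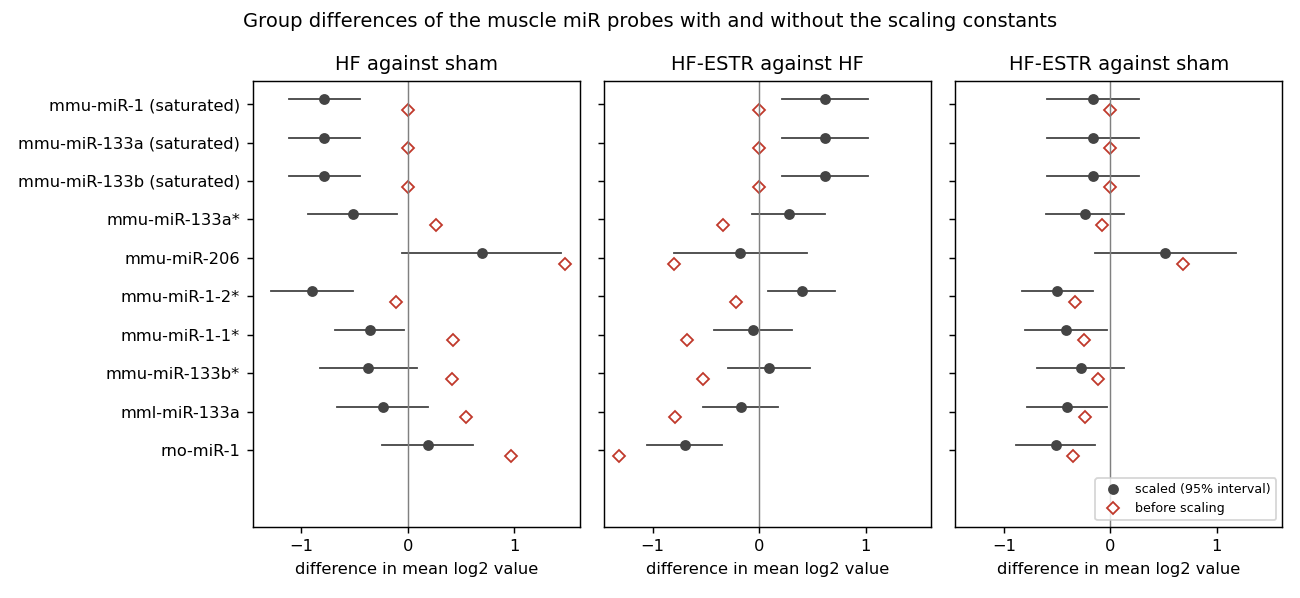
Difference between group means on the log2 scale (x axis) for the 6 muscle miRs and 4 unsaturated relatives (rows) in 3 comparisons, with scaled values as filled points with the 95% interval of the limma fit and unscaled values as open diamonds. The saturated miRs lie at 0 before scaling, miR-133a* changes sign between the scales in HF against sham and in HF-ESTR against HF, and rno-miR-1 is below 0 on both scales in HF-ESTR against HF.

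The array also carries 9 other probes named for these families in mouse (mmu), rat (rno) or rhesus monkey (mml). None was saturated. The sequences of the rat and monkey probes were not used here, so that which mouse RNA each of them takes up is not known from these data. They were fitted with all 2489 mammalian probes.
The rat miR-1 probe gave mean intensities of 270, 189, 148, 129 and 133 in HF-ESTR 1 to 5, of 381, 543, 310, 631 and 312 in HF 1 to 5, and of 286, 222, 196 and 178 in sham 1 to 4. All 5 HF mice were above all HF-ESTR and all sham mice. HF-ESTR lay at 0.401 of HF before scaling (exact permutation test, two-sided, p = 0.00794 and 0.119 after adjustment over 15 tests of 5 such probes), and HF lay 1.96-fold above sham (p = 0.0159, also 0.119 after adjustment). On the log2 scale these are -1.32 and 0.97, where the median unscaled difference over the 520 miRs was -0.55 and 0.66. Part of each difference is thus shared by most miRs. The share of all probes without overlap before scaling was not worked out.
After scaling, rno-miR-1 fell in HF-ESTR against HF by 0.70 (SE 0.17, limma, adjusted p = 0.0101). Of the mammalian probes 0.362% were called lower and 36% higher there, beside 0.962% and 11.2% of the 520 kept miRs. The groups again did not overlap for rno-miR-1, at 7.44 to 7.86 in HF-ESTR and 7.92 to 8.54 in HF mice. That was the case for 5.58% of the 520 kept miRs. The rno-miR-1 probe stayed called when any 1 mouse was left out, with differences from -0.78 to -0.62. Within the array code shared by HF-ESTR 1 to 3 and HF 5, the difference was -0.34, and with the code as a block the adjusted p was 0.475. The scaled difference between HF and sham was 0.19 ± 0.20 (adjusted p = 0.455), with 24.1% of probes called lower and 2.37% higher, and that between HF-ESTR and sham was -0.51 ± 0.18 (adjusted p = 0.232), with 0.321% lower and 0.844% higher.

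The monkey miR-133a probe gave 14397, 8467, 10211, 6359 and 6754 in HF-ESTR 1 to 5, 12219, 20611, 10206, 20365 and 15877 in HF 1 to 5, and 10491, 11419, 9386 and 10560 in sham 1 to 4. HF 2, HF 4 and HF 5 were the brightest, and the groups overlapped. Unscaled, HF-ESTR lay at 0.578 of HF (exact permutation test, two-sided, p = 0.0397, adjusted 0.149) and HF 1.46-fold above sham (p = 0.0635, adjusted 0.190). Scaled, the differences were -0.17 ± 0.17 (SE, adjusted p = 0.427) and -0.24 ± 0.20 (adjusted p = 0.344), so that the sign between HF and sham depended on the scaling. The unscaled log2 difference between HF and sham was 0.55, below the median of 0.66 over the 520 miRs.
The mouse probe miR-1-1*, the 5p arm of the other miR-1 hairpin and above the threshold on all 14 arrays, had unscaled means of 73.6 ± 10.3 in HF-ESTR, 118 ± 31.8 in HF and 85.5 ± 7.04 in sham mice (SD). HF-ESTR lay at 0.626 of HF before scaling (exact permutation test, two-sided, p = 0.0317, adjusted 0.149). Its scaled differences were -0.06 ± 0.17 for HF-ESTR against HF (SE, limma over the 520 miRs, adjusted p = 0.889) and -0.36 ± 0.15 for HF against sham (adjusted p = 0.0899), where miR-1-2* of the same seed was called and where the unscaled means of miR-1-1* have the opposite order.
miR-133b*, above the threshold in 3 of 5 HF-ESTR, 4 of 5 HF and 4 of 4 sham mice, had scaled differences of 0.09 ± 0.18 (adjusted p = 0.815) and -0.37 ± 0.21 (adjusted p = 0.193) in these comparisons, and unscaled ones of the opposite sign, -0.53 and 0.41. The rat miR-133a* probe resembled mouse miR-133a*, with scaled differences of 0.16 ± 0.17 for HF-ESTR against HF (adjusted p = 0.469) and -0.40 ± 0.20 for HF against sham (adjusted p = 0.138), and its unscaled differences also turned, to -0.46 and 0.39. The rat miR-1* probe was called lower in HF than in sham (-0.70 ± 0.22, adjusted p = 0.0418) and higher in HF-ESTR than in HF (0.54 ± 0.20, adjusted p = 0.0438), and each call was lost on leaving out any 1 of 7 mice. Before scaling these differences were 0.09 and -0.08. The opposite arm of miR-206 was above the threshold on no array with either its mouse or its rat probe. The rat probe was nevertheless called higher in HF-ESTR than in HF, by 1.12 ± 0.31 (adjusted p = 0.0156), and a value below the detection threshold gives no level of the miR.

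**Figure D4:**
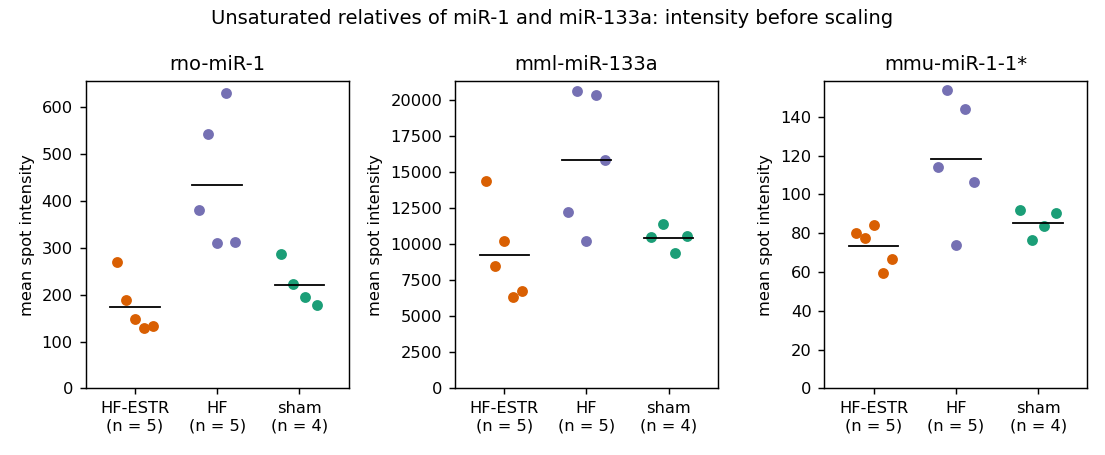
Mean intensity of the 3 spots before scaling (linear axis from 0) of 3 unsaturated relatives of miR-1 and miR-133a, 1 point per array in HF-ESTR, HF and sham mice, with the group mean as a line. For rno-miR-1 the 5 HF mice (310 to 631) lie above the 5 HF-ESTR mice (129 to 270) and the 4 sham mice (178 to 286), whereas the other 2 probes overlap.

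The difference between 2 probes on the same array does not contain the array constant, and it was compared between groups for the 3 unsaturated members. miR-206 minus miR-1-2* was 0.31 ± 0.30 in HF-ESTR, 0.88 ± 0.70 in HF and -0.71 ± 0.70 in sham mice (SD). HF and sham thus differed by 1.59 (exact permutation test, two-sided, p = 0.0317), HF-ESTR and sham by 1.02 (p = 0.0476) and HF-ESTR and HF by -0.58 (p = 0.103), and each adjusted p over the 9 tests of 3 pairs was 0.133. Since miR-206 was above the threshold in 1 of 4 sham mice and miR-1-2* in 3 of 5 HF mice, these values were partly set by background, and with negative controls subtracted the difference between HF and sham was 3.35 (adjusted p = 0.143 in the same exact test). In the same exact test miR-206 minus miR-133a* differed between HF-ESTR and sham by 0.76 (p = 0.0952), between HF and sham by 1.21 (p = 0.0794) and between HF-ESTR and HF by -0.45 (p = 0.381). For miR-133a* minus miR-1-2*, the differences by this exact test were 0.26 (p = 0.0476), 0.38 (p = 0.0635) and -0.12 (p = 0.849) in the same order. No within-array difference passed after adjustment, and the sign of the last one changed without HF 5, to 0.11.

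Pairs with the unsaturated relatives were added after their values were seen. Of 12 tests over 4 pairs, the adjusted p was 0.0952 at the lowest. rno-miR-1 minus mml-miR-133a was -5.74 ± 0.22 in HF-ESTR, -5.21 ± 0.28 in HF and -5.63 ± 0.29 in sham mice (SD), a difference of -0.53 between HF-ESTR and HF (exact permutation test, two-sided, p = 0.0317). rno-miR-1 minus miR-133a* did not overlap between HF-ESTR (-6.98 to -6.84) and HF (-6.82 to -5.43), with a difference of -0.98 (p = 0.00794). miR-133a* minus mml-miR-133a was higher in HF-ESTR (1.18 ± 0.22) than in HF (0.73 ± 0.27) by 0.45 (p = 0.0159). Within the array code shared by HF-ESTR 1 to 3 and HF 5, however, the 3 probes differed between the groups to a similar extent. The scaled differences there were -0.34 for rno-miR-1, -0.27 for miR-133a* and -0.23 for mml-miR-133a, so the pairs differed little. The share of all probe pairs without overlap was not worked out.

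**Figure D5:**
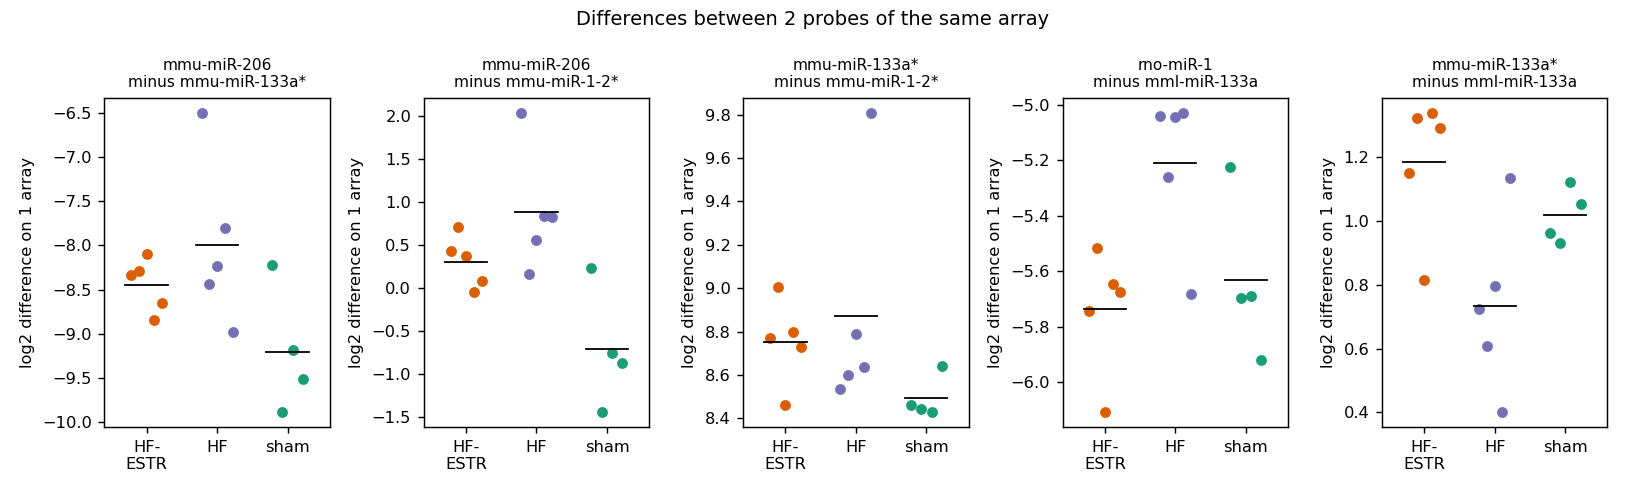
Log2 difference between 2 probes of the same array (y axes with different ranges, not starting at 0), 1 point per array in HF-ESTR, HF and sham mice, with the group mean as a line. miR-206 minus miR-1-2* is above 0 in all 5 HF mice and below 0 in 3 of 4 sham mice, and for miR-133a* minus miR-1-2* the highest point is HF 5 at 9.81.

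Among the 475 other kept miRs that were saturated on no array, those with scaled values most like each unsaturated member over the 14 arrays were listed as a description. The arrays share groups and array codes. For miR-1-2* they were miR-504 (Pearson r = 0.931), miR-208a-5p (0.926) and miR-345-3p (0.914), with group means of 6.19 in HF-ESTR, 5.85 in HF and 6.53 in sham mice for miR-504. For miR-133a* they were miR-101a* (0.876), miR-22* (0.859) and miR-378* (0.804). For miR-206 they were miR-466h-5p (0.791), miR-669c* (0.699) and a probe shared by miR-669m-5p and miR-466m-5p (0.651), with means of 9.17, 12.18 and 7.30 in HF and of 8.94, 12.10 and 7.39 in sham mice. Between members the scaled values correlated at 0.575 for miR-133a* with miR-1-2*, at -0.465 for miR-206 with miR-1-2* and at -0.662 for miR-206 with miR-133a*. The unscaled values correlated at 0.533, 0.278 and 0.369 for the same pairs, so that both negative signs were absent without the array constants.

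Of 8 other muscle-enriched miR probes, 7 were kept and tested. Between HF and sham 1 was called higher and 3 lower, beside 8.46% and 18.3% of all miRs. Between HF-ESTR and HF 0 were called in limma (miR-208b and miR-499* had an unadjusted p under 0.05, 0.0424 and 0.0197), beside 11.2% higher and 0.962% lower of all. Between HF-ESTR and sham 1 was called higher and 2 lower, beside 5.19% and 3.27% of all. Without scaling these calls were 2 higher and 0 lower, 0 higher and 3 lower, and 1 higher and 0 lower in the same order. Of all 520 miRs, 244 were called higher and 0 lower without scaling in the first comparison. In the second, 0 were called higher and 170 lower. miR-208b, encoded with the slow myosin heavy chain gene, was higher in HF than in sham by 5.11 ± 0.42 (SE, adjusted p = 3.05e-05), with 12.63 to 14.83 in HF and 7.67 to 9.11 in sham mice, and by 5.01 to 5.89 under 5 other scalings, no scaling included. miR-208a-3p and miR-208a-5p, encoded with the adult fast myosin gene, fell by 0.83 and 0.84 relative to the scaling (adjusted p = 0.0124 and 0.00598), but without it had -0.04 and -0.06 and were not called (adjusted p = 0.912 and 0.857). miR-499 fell by 0.59 relative to the scaling (adjusted p = 0.00867) and had the opposite sign without it, at 0.19 (adjusted p = 0.358). miR-486, miR-486* and miR-499* had -0.15, -0.38 and -0.65 and were not called, and without scaling had 0.64, 0.41 and 0.13, of which the first was called (adjusted p = 0.0192). The median unscaled difference between HF and sham over all 520 miRs was 0.66. The median over the 7 was -0.59 for HF against sham, 0.14 for HF-ESTR against HF and -0.24 for HF-ESTR against sham.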

How the data were processed

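LV miR levels of 14 mice, grouped by the sample labels, were measured on arrays of miRBase probes, and the number of arrays limits the precision. The deposited intensities are background-subtracted spot values with no scaling between arrays. From them the authors made log2 values, averaging 3 spots and adding 1 factor per array, which the table's notes base on a 20% trimmed mean. On the values, each equals the mean log2 spot intensity (floor 1) plus 1 constant per array within 5e-09. The authors kept mouse probes above a threshold from negative controls. Their notes give 524, of which 520 were used here. The authors' deposited fold changes and p-values were not used. 0 value columns were left unassigned.

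The HF and sham mice were fitted together (9 arrays), HF-ESTR was compared with HF and with sham over all 14 arrays, with limma 3.58.1 (R 4.3.3) on the scaled log2 values, with no pairing and Benjamini-Hochberg adjustment over all miRs fitted. A miR was called where the log2 difference exceeded 0.5 in size at an adjusted p under 0.05, the thresholds of the methods with the log read as log2. Probes of other species were fitted with all 2489 mammalian probes. Exact permutation tests, two-sided, used scipy 1.17.1, for unscaled values and differences within arrays. The scripts were tested on simulated data. Alternatives were other scalings, negative controls (28 probes, median) subtracted, median spots, filters, the methods' t-test, other samples in the fit, the replicate number or array code as a block, array weights, and leaving out each mouse. With the array code as a block, the comparison of HF-ESTR with HF rests on HF-ESTR 1 to 3 against HF 5, which share a code. Replicates were separate mice.

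All members are named, with the 3 miRs most correlated with each unsaturated member and all measured miRs of a fixed muscle list. The members and lists were chosen with earlier results of these data known. miRs named for other species were described after their values were seen. Sequences and positions are from RefSeq (GRCm38.p6) and probe units from the authors' table. Some sequences are not reported here. Figures were drawn with matplotlib 3.10.9.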

Additional observations from a re-analysis of the deposited data

Results flagged for a closer look

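1 value stood apart from its group by Dixon's ratio. The scaled log2 value of miR-206 was 7.383 in HF 1, against 5.736 to 6.168 in the other 4 HF mice, a gap of 0.738 of the range of the group. 18 groups of values were examined (3 unsaturated miRs, 3 groups, with and without scaling), and chance flags about 1 in 20. Its 3 spots were 209 to 244, and without HF 1 the difference between HF and sham was 0.40 and that between HF-ESTR and HF was 0.12.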

How the results depend on the processing

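Over 15 alternatives to the scaled fits (14 for miR-206 and miR-1-2*, which the stricter filter removed), beside leaving out each mouse, miR-206 and miR-1-2* kept the sign of the difference between HF and sham. That of miR-133a* turned without scaling, to 0.265. The sign of the 3 saturated miRs was also kept but follows the array constants. Without scaling miR-1, miR-133a and miR-133b had -0.00026, -0.00029 and -0.00056, at the ceiling. miR-133a* itself was called lower in 6 of these alternatives, and miR-206 higher in 3 (without scaling, with array weights and with the replicate block). The number of muscle miRs called, 4 there, was 2 after quantile normalization (miR-1-2* and miR-133a*), beside 32 lower and 45 higher of all 520. Without scaling that number was 1 (miR-206), beside 0 lower and 244 higher of all 520. Between HF-ESTR and HF the number, 3, was 0 after quantile normalization, without scaling, on the 75th percentile of all probes, with negative controls subtracted, in the methods' t-test, with other samples in the fit and with the array code as a block, and 0 to 3 with each mouse left out. The sign of miR-1-2* turned after quantile normalization (-0.0097) and without scaling (-0.210). That of miR-133a* turned without scaling (-0.342) and with the code as a block (-0.272). That of miR-206 turned on the 75th percentile of detected probes (0.042), with the code as a block (0.468) and without HF 1 (-0.291 to 0.121 over the mice). Between HF-ESTR and sham 1 miR, miR-1-2*, was called after quantile normalization, with negative controls subtracted, with array weights and with the code as a random block, and 0 to 1 with each mouse left out. The 3 saturated miRs turned to 0.033 without the 650 arrays, an alternative added after seeing the data, and without HF-ESTR 1 alone, and spanned -0.251 to 0.033 over the mice. With negative controls subtracted, the within-array difference of miR-133a* minus miR-1-2* between HF-ESTR and HF turned to 0.170 (over the mice -0.205 to 0.113). Of the other species' probes, without scaling, rno-miR-1* turned to 0.089, -0.077 and 0.012 in the 3 comparisons (HF against sham, HF-ESTR against HF, HF-ESTR against sham) and mml-miR-133a to 0.549 between HF and sham.

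Counts over all miRs moved by more than 1.5 times in these cases. For HF against sham (95 lower, 44 higher) they were 32 lower after quantile normalization, 0 lower and 244 higher without scaling, 49 and 72 on the 75th percentile of all probes, 56 and 28 on that of detected probes, 62 lower with negative controls subtracted and 229 lower over all mouse probes. For HF-ESTR against HF (5 lower, 58 higher) they were 1 and 1 after quantile normalization, 170 and 0 without scaling, 11 higher on the 75th percentile of all probes, 2 and 88 on that of detected probes, 3 and 88 on the median of miRs neither saturated nor dim, 1 and 0 with negative controls subtracted, 300 higher over all mouse probes, 1 and 4 in the methods' t-test, 3 and 17 with other samples, 17 and 92 with array weights, 0 and 0 with the code as a block, 15 and 104 without the 650 arrays, and 1 to 13 lower and 4 to 74 higher with each mouse left out. For HF-ESTR against sham (17 lower, 27 higher) they were 0 lower without scaling, 10 lower on the 75th percentile of all probes, 3 lower on that of detected probes, 8 and 17 over all mouse probes, 11 and 15 in the methods' t-test, 28 lower with array weights, and 9 to 20 lower and 17 to 31 higher over the mice. The cause was not tested. Scalings by 1 constant per array move all its miRs together by construction, which quantile normalization does not.

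The replicate numbers did not pair the mice, with correlations of -0.295 to 0.457 over 13 pairs and 7 of 14 arrays closest to their own number. With the replicate block, calls were 8 lower for HF-ESTR against HF and 11 lower for HF-ESTR against sham. Between HF and sham all 6 muscle miRs were called (miR-133a* at -0.658, miR-206 at 0.802), and rno-miR-1* (-0.649) was not. Of all 520 miRs, 95 were called lower and 49 higher in that fit. Among the 6, saturated miR-1, miR-133a and miR-133b follow the array constants. Because the replicate numbers did not pair the mice, no conclusion is drawn from these calls. miR-206, miR-1-2* and miR-133b* lay close to the negative controls, which limits their precision.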
